A study of Bos taurus with 16 samples.

Results

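The genes described here are the solute carriers: the 179 genes whose symbol starts with SLC and a digit, out of 9155 genes named by the annotation of the array. The rule that chose them uses the symbol and no measured value, but it was set with earlier results of these data known. Each gene is read through 1 probe set, the one with the highest mean signal over the 16 arrays. They have 252 probe sets in all, and 51 of the genes have more than 1. Symbols of 2 of them, SLC4A1AP and SLC7A6OS, name proteins that are not carriers.

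Affymetrix bovine GeneChip arrays were hybridised with total RNA of theca interna cells, the androgen-producing layer of the wall of the ovarian follicle. The cells came from ovaries of adult cattle collected at a slaughterhouse and were pooled from about 50 follicles with diameters of 4 to 6 mm. They were kept as primary cultures in serum-free medium for 6 days, and treatments were added from day 3 through day 6. Control cultures received neither hormone, LH cultures received luteinising hormone at 160 pg/ml, BMP6 cultures received bone morphogenetic protein 6 at 10 ng/ml, and LH+BMP6 cultures received both at these doses. Each group held 4 arrays, from 4 culture experiments on separate batches of ovaries, so every array averages over a pool of follicles and over all cells of a culture.

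Solute carriers are membrane proteins that move sugars, amino acids, ions, metals, nucleotides and vitamins across the cell membrane or across the membranes of mitochondria, the Golgi apparatus and lysosomes. Some let a solute run down its gradient, some couple it to sodium or protons, and some exchange one solute for another. In theca cells LH is known to drive androgen synthesis from cholesterol, and BMP6, a ligand of the transforming growth factor family, is known to lower it in culture.

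Values are log2 signals, so a difference of 1.00 is a 2-fold change, and a gene is called when its adjusted p from limma is under 0.05. Group levels are mean ± SD over 4 arrays, and differences are given ± SE with 4 arrays in each group. Signals of different probe sets are not on 1 scale, so levels are compared between groups and not between genes. The lower quartile of the signals of an array lay between 4.31 and 4.43, and 39 of the 179 carriers had a mean below the average of these quartiles (4.37). No background level was estimated.

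The 6 theca markers had a summed signal, on the linear scale, of 2.07e+04 to 2.70e+04 on the control arrays and of 1489 to 2269 on the BMP6 arrays, and 5 of 6 were called lower in BMP6 against control and 6 of 6 in LH+BMP6 against LH, with 0 higher. Of 7 leukocyte markers, 2 were called higher in BMP6 against control and 4 in LH+BMP6 against LH, with 0 called lower in each. Their summed signal was 1078 to 1139 on the control arrays, 738 to 1305 with LH, 1231 to 2255 with BMP6 and 1537 to 2117 with LH+BMP6. Of the 7, 0 had a mean over the 16 arrays under the average lower quartile. Of 7 fibroblast and pericyte markers 2 were called higher without LH, and 2 higher and 1 lower with LH, of 5 granulosa markers 1 (CDH2) was called higher in each, and of 6 endothelial and 4 red blood cell markers 0 were called. The gap between the actin 3' and 5' probe sets, a sign of RNA length, was 2.20 ± 0.35 in control, 2.10 ± 0.16 in LH, 1.86 ± 0.28 in BMP6 and 1.72 ± 0.28 in LH+BMP6 (SD, n = 4). The hybridisation controls averaged 8.66 to 8.71 on 3 arrays (LH replicate 1 and control replicates 1 and 3), against 9.84 to 10.2 on the other 13. The part of marker levels, RNA length and these arrays in the results below was not tested, and in bulk cultures fewer cells of a type and less RNA per cell cannot be told apart.

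BMP6 moved carriers in both directions, without LH and with it. In BMP6 against control, 20 of the 179 carriers were called higher and 17 lower, or 20.7%, where the same test called 24.8% of all named genes (9.31% higher and 15.5% lower). In LH+BMP6 against LH, 23 were called higher and 17 lower, or 22.3%, against 27.2% of all named genes (11.7% higher and 15.5% lower). In each comparison the share of carriers called was a little under that of all genes, a difference that was not tested. Of the 39 carriers with a mean under the lower quartile, 0 were called without LH, and 1 higher and 1 lower with it. Of the other 140, 26.4% were called without LH and 27.1% with it. The share over all named genes was not split by signal in this way. The median difference of the carriers was 0.02 without LH and -0.03 with it, beside -0.02 and -0.03 over all named genes. Without control replicate 1 the carriers called higher in BMP6 against control fell from 20 to 13, and without LH+BMP6 replicate 3 those called lower in LH+BMP6 against LH fell from 17 to 11. Without the 3 arrays of low hybridisation signal the calls were 12 higher and 11 lower in BMP6 against control, and 17 higher and 13 lower in LH+BMP6 against LH. This ended 14 of the 37 calls in BMP6 against control. Of the carriers described below, they were those of SLC6A4 (adjusted p 0.13), SLC39A14 (0.123), SLC4A7 (0.207), SLC39A13 (0.167), SLC8B1 (0.102), SLC25A29 (0.085), SLC5A11 (0.0572) and SLC17A9 (0.0537). It also ended 10 of the 40 calls in LH+BMP6 against LH, among them those of SLC1A5 (adjusted p 0.186), SLC7A5 (0.162), SLC6A4 (0.134), SLC31A1 (0.126), SLC35F5 (0.11), SLC66A2 (0.104) and SLC10A1 (0.0787).

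Called carriers came from most of the classes. Without LH, 9 of 27 mitochondrial carriers were called, 4 of 15 in the sugar families, 8 of 30 carriers of nucleosides, nucleotide sugars and vitamins, 5 of 21 metal carriers, 4 of 21 carriers of inorganic ions and 6 of 34 carriers of amino acids and neurotransmitters. Of 8 monocarboxylate, dicarboxylate and bile acid carriers 1 was called. None of the 18 carriers of organic ions, urea, choline and fatty acids was called by limma in either comparison, with 1 at an unadjusted p under 0.05 in each. The median of their mean signals was 4.367, level with the average lower quartile of the arrays (4.37). The part of low signal in this count was not tested. Whether classes differ in their share was not tested.

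**Figure D1:**
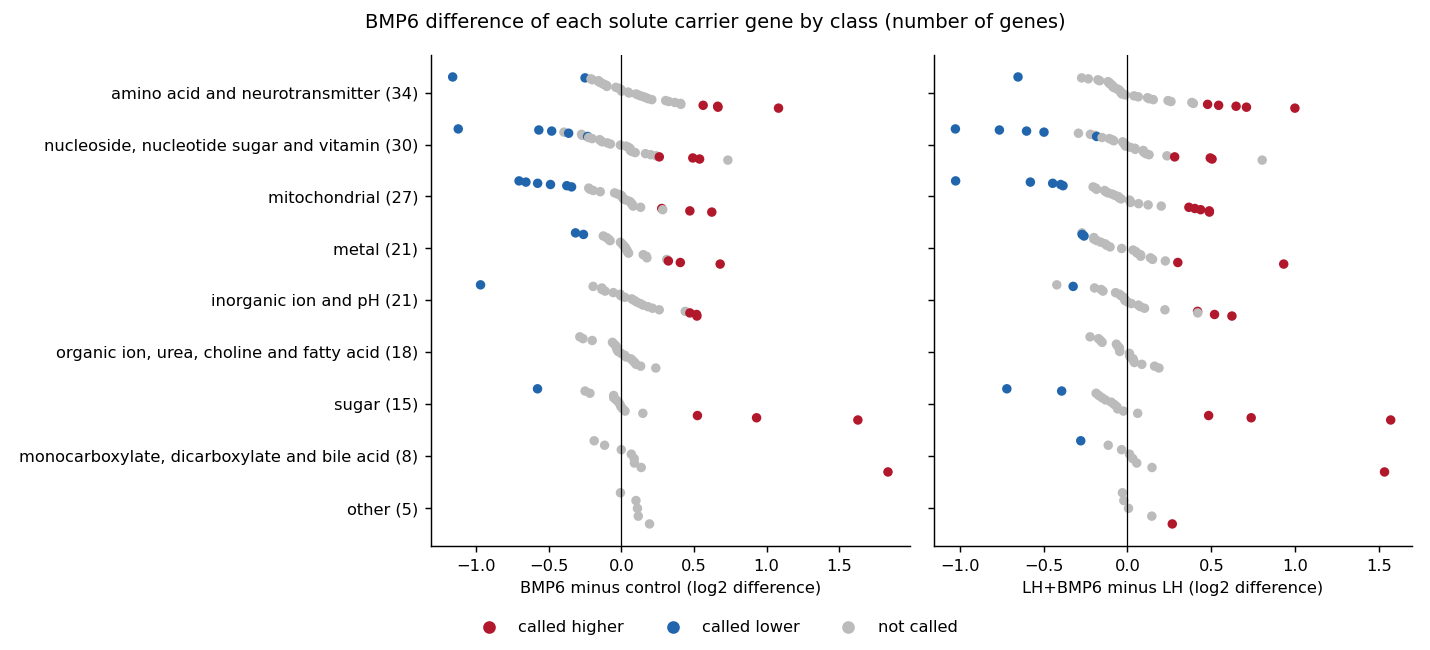
Each point is 1 solute carrier gene, placed by its log2 difference in BMP6 minus control (left) and LH+BMP6 minus LH (right), in rows by class with the number of genes in parentheses; colour gives the limma call and height within a row only spreads the points. The farthest points to the right are SLC16A3 in the monocarboxylate row and SLC2A3 in the sugar row, and all 18 points of the organic ion row are grey in both panels.

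Among the carriers, a lactate exporter (SLC16A3) and a glucose transporter (SLC2A3) had the largest rises in both BMP6 comparisons. SLC16A3 encodes MCT4, a monocarboxylate carrier that exports lactate from cells with high glycolysis. Its signals were 5.66, 5.89, 6.63 and 6.63 on the control arrays and 7.35, 9.15, 7.95 and 7.71 on the BMP6 arrays. With LH they were 7.09, 6.91, 6.53 and 6.88, and with LH+BMP6 7.89, 9.47, 8.26 and 7.92. All 4 arrays with BMP6 lay above all 4 of their comparison group in each case, and replicate 2 was the highest of its group under BMP6 and under LH+BMP6. The difference was 1.84 ± 0.36 without LH, or 3.57-fold (limma adjusted p 0.00181), and 1.53 ± 0.36 with LH, or 2.89-fold (adjusted p 0.00586). A mean over its probe sets gave smaller rises, 0.86 without LH and 0.75 with it, both called, and without all arrays of replicate 3 the call with LH was lost (adjusted p 0.0566).

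SLC2A3 encodes GLUT3, a glucose transporter of high affinity. It measured 4.35, 4.52, 5.05 and 5.09 on the control arrays and 5.90, 7.34, 5.90 and 6.40 on the BMP6 arrays. The groups did not overlap, and BMP6 replicate 2 stood highest. With LH the signals were 5.01, 4.66, 5.04 and 5.30, and with LH+BMP6 they were 6.21, 7.53, 6.56 and 5.99, again without overlap. SLC2A3 rose by 1.63 ± 0.32 without LH, or 3.09-fold (adjusted p 0.00176), and by 1.57 ± 0.32 with LH, or 2.96-fold (adjusted p 0.00207).

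SLC2A1 encodes GLUT1, the basal glucose transporter of many cell types. Its control signals were 8.60, 8.85, 9.25 and 9.03, and its BMP6 signals 9.42, 10.43, 9.93 and 9.68, with no overlap. The LH signals of 9.54, 9.31, 9.11 and 9.18 and the LH+BMP6 signals of 9.55, 10.64, 10.00 and 9.90 nearly met, at LH replicate 1 and LH+BMP6 replicate 1. The rise was 0.93 ± 0.22 without LH, or 1.91-fold (adjusted p 0.00563), and 0.74 ± 0.22 with LH (adjusted p 0.0217). The call with LH was lost without LH replicate 3, LH replicate 4 or LH+BMP6 replicate 2 (adjusted p 0.0542 to 0.0787).

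SLC2A6, a glucose transporter family member found on lysosomes, had a smaller and tighter rise. Its means were 6.57 ± 0.13 in control and 7.09 ± 0.12 in BMP6, and 6.69 ± 0.11 in LH and 7.18 ± 0.11 in LH+BMP6, a difference of 0.52 ± 0.09 (adjusted p 0.000759) and 0.48 ± 0.09 (adjusted p 0.00127). SLC5A11, a sodium-coupled carrier of myo-inositol and glucose, went the other way. It had control signals of 5.68, 5.33, 5.08 and 5.27 and BMP6 signals of 4.73, 4.83, 4.66 and 4.81, which did not overlap. SLC5A11 fell by 0.58 without LH (adjusted p 0.0144, and 0.0594 without control replicate 1) and by 0.72 with LH (adjusted p 0.00302). SLC2A8, an intracellular glucose transporter, was called lower with LH (-0.39 ± 0.09, adjusted p 0.00534) and measured -0.25 ± 0.09 without it (adjusted p 0.0695).

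The other 10 members of the sugar families were called in neither comparison, among them SLC2A2, SLC2A4 and SLC2A5, and the median of the 15 was -0.01 without LH and -0.08 with it. SLC16A1, which encodes MCT1 and carries lactate and ketone bodies in both directions, measured -0.19 ± 0.08 without LH (adjusted p 0.128) and -0.11 ± 0.08 with LH (adjusted p 0.372). SLC10A1, the bile acid carrier of the liver, had a mean signal below the lower quartile of the arrays. It was called lower in LH+BMP6 against LH (-0.28 ± 0.08, adjusted p 0.0183, and 0.0573 to 0.073 without LH replicate 1, LH+BMP6 replicate 2 or LH+BMP6 replicate 3). Its other 3 probe sets measured -0.10, -0.05 and -0.04 and were not called, nor was a mean over its probe sets (-0.12, adjusted p 0.172), and the call was also lost in a fit of only the arrays compared (adjusted p 0.0521).

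**Figure D2:**
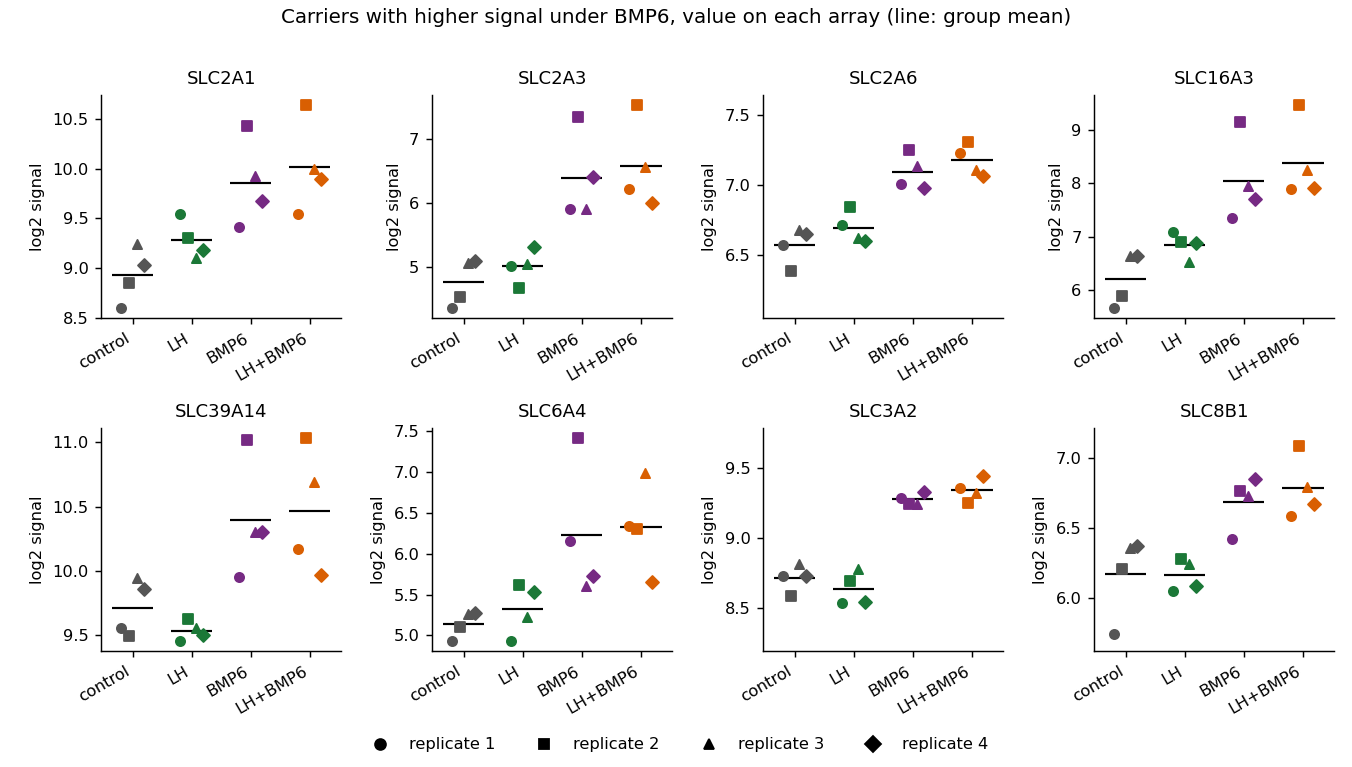
Log2 signal on each of the 16 arrays for 8 carriers with higher signal under BMP6, by group on the horizontal axis, with 1 symbol for each replicate number and a line at the group mean. Replicate 2 (squares) is the highest BMP6 array for SLC2A1, SLC2A3, SLC16A3, SLC39A14 and SLC6A4, while the 4 BMP6 arrays of SLC3A2 lie between 9.24 and 9.33.

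Some of these carriers also varied together within groups. After the mean of its group was taken from every array, SLC16A3 was most like SLC2A1 (Pearson r 0.95, Spearman 0.953), SLC39A14 (0.902 and 0.853) and SLC2A3 (0.897 and 0.785) over the 16 arrays, followed by SLC46A2 (0.796 and 0.653) and SLC7A5 (0.742 and 0.535). These are descriptions, and the arrays share culture experiments. The arrays farthest from the median of SLC16A3 were BMP6 replicate 2, at 1.11 above its group mean, and LH+BMP6 replicate 2, at 1.08 above. Without both, r was 0.895 for SLC2A1, 0.768 for SLC39A14 and 0.729 for SLC2A3, but 0.484 for SLC46A2 and 0.296 for SLC7A5, which thus rested on these arrays.

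**Figure D3:**
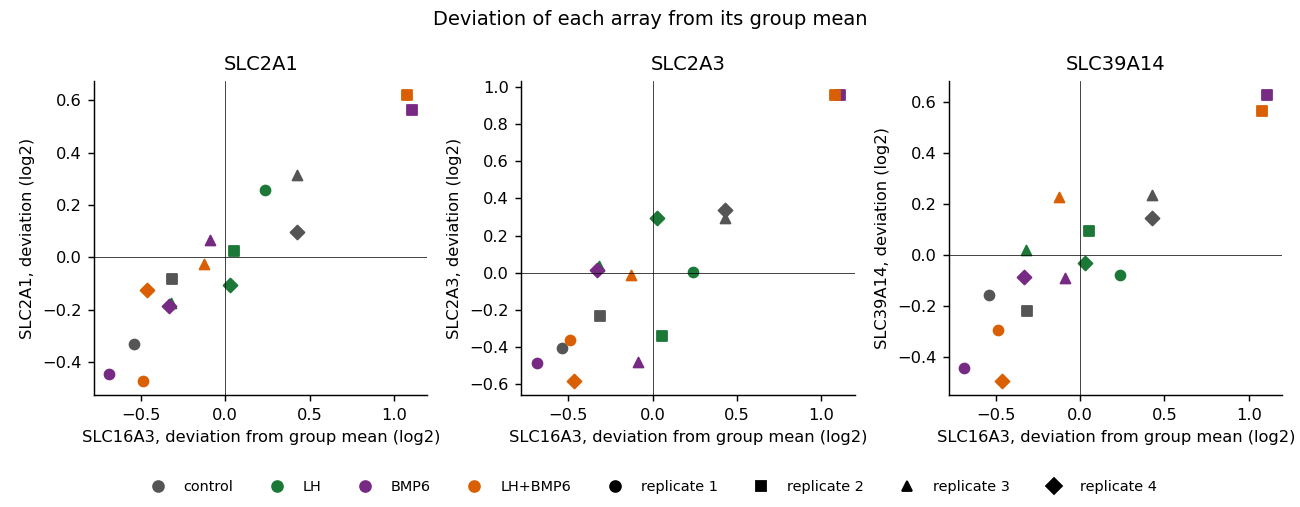
Deviation of each of the 16 arrays from its group mean (log2) for SLC16A3 on the horizontal axis and, on the vertical axes, SLC2A1, SLC2A3 and SLC39A14; colour gives the group and symbol the replicate number. BMP6 replicate 2 and LH+BMP6 replicate 2 (squares) lie alone at the upper right of each panel, at 1.11 and 1.08 for SLC16A3.

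The genes of glucose breakdown, which use what the glucose carriers bring in, were counted from a list. Of 21 measured genes, 12 were called higher and 3 lower in BMP6 against control, and 13 higher and 3 lower in LH+BMP6 against LH, with medians of 0.47 in both. Over all named genes the shares were 9.31% higher and 15.5% lower without LH, and 11.7% and 15.5% with it. These shares also stand beside the lists counted below. All the lists were written with earlier results of these data known, and no list was tested as a set. PFKFB3, which makes the activator of phosphofructokinase, rose by 2.21 ± 0.34 (adjusted p 0.000259), LDHA, which turns pyruvate into lactate, by 1.46 ± 0.23 (adjusted p 0.000334), and HK1, which traps glucose as its phosphate, by 1.03 ± 0.11 (adjusted p 1.04e-05). PFKM, the muscle-type phosphofructokinase, fell by 1.01 ± 0.16 (adjusted p 0.00024). With LH these 4 differences were 1.97, 1.16, 0.94 and -1.11, in the same order, and each was called. With a mean over the probe sets of each gene the differences without LH were 0.87 for PFKFB3, 0.38 for LDHA and -0.62 for PFKM. With LH they were 0.85 for PFKFB3 and 0.33 for LDHA, and each of these was called. MPC1, a subunit of the carrier that takes pyruvate into mitochondria, fell by 0.64 ± 0.09 without LH (adjusted p 9.83e-05) and by 0.71 ± 0.09 with LH (adjusted p 3.43e-05).

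Among carriers of amino acids and neurotransmitters, 4 of 34 were called higher and 2 lower without LH, and 5 higher and 1 lower with LH. SLC3A2 encodes the heavy chain that brings several light-chain amino acid exchangers to the cell surface. Its control signals were 8.73, 8.59, 8.81 and 8.72, and its BMP6 signals 9.29, 9.24, 9.24 and 9.33. Its LH signals were 8.53, 8.69, 8.78 and 8.54, and its LH+BMP6 signals 9.36, 9.25, 9.33 and 9.44. The groups with BMP6 lay wholly above those without it and spread little. SLC3A2 rose by 0.56 ± 0.07, or 1.48-fold (adjusted p 5.30e-05), and by 0.71 ± 0.07 with LH, or 1.63-fold (adjusted p 5.32e-06).

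Its light-chain partner SLC7A5 and other amino acid carriers were less clear than SLC3A2. SLC7A5, the light chain LAT1 that takes up large neutral amino acids in exchange, measured 7.04 ± 0.12 in control and 7.45 ± 0.44 in BMP6, a difference of 0.41 ± 0.19 (adjusted p 0.152). In LH+BMP6 against LH it was called higher (0.54 ± 0.19, adjusted p 0.0491), and this call was lost without any 1 of 7 of the 8 arrays, LH+BMP6 replicate 4 being the exception (adjusted p 0.0506 to 0.168). It was lost as well with no intensity trend, with a robust trend, after quantile normalization and after median centring (adjusted p 0.0506 to 0.0619). SLC1A5, the glutamine exchanger ASCT2, measured 0.37 ± 0.16 without LH (adjusted p 0.132) and was called with it (0.48 ± 0.16, adjusted p 0.0443). The latter call was lost without LH replicate 1, LH replicate 2, LH+BMP6 replicate 2 or LH+BMP6 replicate 3 (adjusted p 0.0637 to 0.162), in a fit of only the arrays compared (adjusted p 0.0598) and after quantile normalization (adjusted p 0.0568). With the replicate number as a fixed block SLC1A5 was also called without LH (adjusted p 0.0401). SLC38A2, the sodium-coupled carrier SNAT2 for small neutral amino acids, measured -0.21 ± 0.10 (adjusted p 0.189) and -0.23 ± 0.10 (adjusted p 0.13).

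SLC6A4 encodes the serotonin transporter. Its signals were 4.93, 5.10, 5.27 and 5.27 in control, 6.15, 7.41, 5.61 and 5.73 in BMP6, 4.93, 5.61, 5.22 and 5.53 in LH, and 6.34, 6.30, 6.98 and 5.66 in LH+BMP6. The groups with BMP6 were higher without overlap but wide, with SDs of 0.82 and 0.54. The differences of 1.08 ± 0.32 (adjusted p 0.0237) and 1.00 ± 0.32 (adjusted p 0.0332) were called. The first call was lost without control replicate 1, control replicate 2 or BMP6 replicate 2 (adjusted p 0.0551 to 0.0683), and the second without LH replicate 1, LH replicate 3 or LH+BMP6 replicate 1, 2 or 3 (adjusted p 0.0614 to 0.122) or with a robust trend (adjusted p 0.0518).

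SLC17A9, which loads ATP into vesicles, was called higher without LH (0.67 ± 0.19, adjusted p 0.0188) and with it (0.65 ± 0.19, adjusted p 0.0201). The first call was lost without control replicate 1 or BMP6 replicate 2 (adjusted p 0.0554 to 0.0748), and the second without LH replicate 1 or LH+BMP6 replicates 2 or 3 (adjusted p 0.0535 to 0.0795). SLC6A9, the glycine transporter GLYT1, was called higher without LH (0.66 ± 0.18, adjusted p 0.0137) and measured 0.26 ± 0.18 with LH (adjusted p 0.351). A mean over the probe sets of SLC6A9 was not called without LH (0.33, adjusted p 0.11). Its other probe set, with a mean signal of 4.981 beside 4.994, measured -0.003 without LH (adjusted p 0.991) and -0.14 with LH (adjusted p 0.501).

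SLC1A3, which encodes the glutamate transporter EAAT1, had the largest fall of the carriers in BMP6 against control. It measured 6.28, 5.91, 5.14 and 5.52 on the control arrays and 4.58, 4.80, 4.49 and 4.32 on the BMP6 arrays, with no overlap. Its LH signals were 5.20, 4.84, 5.02 and 5.71 and its LH+BMP6 signals 4.27, 4.84, 4.69 and 4.35, which met at replicate 2 of each group. The fall was 1.16 ± 0.22 without LH, or 2.24-fold (adjusted p 0.00117). With LH it was 0.65 ± 0.22 (adjusted p 0.0418), a call that was lost without LH replicate 1, LH replicate 4 or LH+BMP6 replicate 1, 3 or 4 (adjusted p 0.0578 to 0.142). Some of the BMP6 and LH+BMP6 signals lay near the lower quartile of the arrays (4.31 to 4.43). The part of low signal in the size of these falls was not tested.

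Of 18 measured genes of the response to amino acid shortage, which includes targets of the factor ATF4, 2 were called higher and 3 lower in BMP6 against control, and 5 higher and 3 lower in LH+BMP6 against LH. PSPH, the last enzyme of serine synthesis, fell by 0.73 ± 0.18 (adjusted p 0.00738) and by 0.72 ± 0.18 with LH (adjusted p 0.00706). NUPR1, a stress-induced chromatin protein, rose by 0.73 ± 0.20 (adjusted p 0.0168, and 0.0597 to 0.0627 without control replicate 2 or BMP6 replicate 2) and by 0.87 ± 0.20 with LH (adjusted p 0.00481).

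Of 21 carriers of inorganic ions, 3 were called higher and 1 lower in each BMP6 comparison. SLC20A1, a sodium-coupled phosphate carrier, rose from control signals of 8.87, 8.94, 8.88 and 9.03 to BMP6 signals of 9.33, 9.68, 9.27 and 9.52. Its LH signals were 9.10, 9.11, 8.88 and 8.92, and its LH+BMP6 signals 9.39, 9.59, 9.47 and 9.23. Neither pair of groups overlapped, and the differences were 0.52 ± 0.10 (adjusted p 0.0011) and 0.42 ± 0.10 (adjusted p 0.0047). SLC4A7, a sodium bicarbonate cotransporter, was called higher by 0.47 ± 0.14 (adjusted p 0.0241) and 0.52 ± 0.14 (adjusted p 0.0127). The first of these was lost without control replicate 1, BMP6 replicate 3 or BMP6 replicate 4 (adjusted p 0.0563 to 0.094), and the second without LH+BMP6 replicate 3 (adjusted p 0.051).

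SLC8B1 encodes the exchanger that moves calcium out of mitochondria against sodium. It was called higher without LH (0.52 ± 0.14, adjusted p 0.0152, and 0.0541 to 0.0577 without control replicate 1 or BMP6 replicate 4). With LH the groups did not overlap, at 6.05, 6.28, 6.24 and 6.08 against 6.59, 7.09, 6.79 and 6.67, and the rise was 0.62 ± 0.14 (adjusted p 0.00428).

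SLC12A2 encodes NKCC1, which brings sodium, potassium and chloride into the cell together. Its control signals were 7.95, 7.21, 7.63 and 7.76, and its BMP6 signals 7.003, 6.51, 6.52 and 6.64, all lower than every control array. SLC12A2 fell by 0.97 ± 0.20, or 1.96-fold (adjusted p 0.00234). On the LH arrays it measured 6.87, 7.25, 6.92 and 6.98, and on the LH+BMP6 arrays 7.25, 6.56, 6.40 and 6.13, which overlapped because LH+BMP6 replicate 1 was as high as the highest LH array. The difference with LH was -0.42 ± 0.20 (adjusted p 0.157), and without LH+BMP6 replicate 1 it was -0.64 and was called (adjusted p 0.0128). The other probe set of SLC12A2, with a mean signal of 6.516 beside 6.975, was called lower in both comparisons. It measured -0.90 without LH (adjusted p 0.00108) and -0.48 with LH (adjusted p 0.0484). SLC26A11, a sulfate carrier, was called lower with LH (-0.32 ± 0.08, adjusted p 0.01) and measured -0.11 ± 0.08 without it.

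Pumps that set the ion gradients these carriers use were counted as well. Of 11 measured ion pump genes, 4 were called higher and 1 lower in each BMP6 comparison. ATP1B1, a beta subunit of the sodium pump, rose by 0.54 ± 0.14 (adjusted p 0.0108, and 0.0519 without the 3 arrays of low hybridisation signal) and by 0.69 ± 0.14 with LH (adjusted p 0.00184). Of the small regulators of that pump, FXYD5 rose by 0.62 ± 0.13 (adjusted p 0.00245) and 0.91 ± 0.13 (adjusted p 9.51e-05), and FXYD1 fell by 1.33 ± 0.15 (adjusted p 1.85e-05) and 0.86 ± 0.15 (adjusted p 0.000745). Of 10 measured partners of carriers, 1 was called higher and 2 lower without LH, and 1 higher and 3 lower with LH. The one that rose was CA2, the carbonic anhydrase that supplies bicarbonate and protons to carriers, by 1.17 ± 0.29 (adjusted p 0.00898) and 1.11 ± 0.29 (adjusted p 0.0114). Its control and BMP6 groups overlapped, with control replicate 3 at 8.95 and BMP6 replicate 1 at 8.86. Both CA2 calls were lost without all arrays of replicate 2 (adjusted p 0.0611 and 0.096).

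Of 21 metal carriers, 3 were called higher and 2 lower without LH, and 2 higher and 2 lower with LH. SLC39A14 encodes ZIP14, which takes up zinc, iron and manganese. Its signals were 9.56, 9.50, 9.95 and 9.86 in control and 9.95, 11.02, 10.30 and 10.31 in BMP6, where the lowest BMP6 array, replicate 1, was level with the highest control array. They were 9.45, 9.63, 9.55 and 9.50 in LH and 10.17, 11.03, 10.69 and 9.97 in LH+BMP6, without overlap. The rise was 0.93 ± 0.21 with LH (adjusted p 0.00467). Without LH it was 0.68 ± 0.21 (adjusted p 0.0342), a call that was lost without control replicate 1, control replicate 2 or BMP6 replicate 2, 3 or 4 (adjusted p 0.053 to 0.117).

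SLC39A6, the zinc importer ZIP6, rose by 0.41 ± 0.10 without LH (adjusted p 0.00604). This call was lost with its probe set of highest variance (0.24, adjusted p 0.237) and without all arrays of replicate 1 (adjusted p 0.0623). With LH it rose by 0.30 ± 0.10 (adjusted p 0.033), a call lost without LH replicate 3, LH replicate 4 or LH+BMP6 replicate 1, 2 or 3 (adjusted p 0.0737 to 0.11), in a fit of only the arrays compared (adjusted p 0.0688) and after median centring (adjusted p 0.0588). SLC31A1, the copper importer CTR1, was called lower with LH (-0.27 ± 0.09, adjusted p 0.0437), a call lost without any 1 of 7 of the 8 arrays, LH replicate 3 being the exception (adjusted p 0.0504 to 0.159), and lost with the replicate number as a fixed block (adjusted p 0.0526). SLC39A13, the zinc carrier ZIP13 of intracellular membranes, was called higher without LH (0.32 ± 0.09, adjusted p 0.0152, and 0.0622 to 0.0623 without control replicate 1 or BMP6 replicate 4) and measured 0.23 ± 0.09 with it (adjusted p 0.0812). SLC39A8, the ZIP8 importer, measured 0.17 ± 0.22 and 0.03 ± 0.22, and SLC30A1, the zinc exporter of the cell membrane, 0.01 ± 0.14 and -0.10 ± 0.14, and neither was called. Of 13 measured genes of metal handling, 3 were called higher and 3 lower without LH, and 5 higher and 3 lower with LH. HMOX1, which frees iron from heme, rose by 0.67 ± 0.09 in both (adjusted p 5.94e-05 and 5.47e-05), and TF, the iron carrier transferrin, fell by 0.74 ± 0.17 (adjusted p 0.0057) and by 1.74 ± 0.17 with LH (adjusted p 3.40e-06). In LH against control TF was called higher (1.13, limma adjusted p 0.0351), a call lost in 13 of 23 alternative settings.

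Mitochondrial carriers of the SLC25 family moved in both directions. Of 27, 3 were called higher and 6 lower in BMP6 against control, and 5 higher and 5 lower in LH+BMP6 against LH. SLC25A1 encodes the citrate carrier, which exports citrate from mitochondria for the making of acetyl-CoA, fatty acids and sterols. It measured 9.79, 9.88, 9.78 and 9.59 in control, 10.74, 10.14, 10.04 and 9.91 in LH, 9.26, 8.89, 9.08 and 8.99 in BMP6, and 9.28, 9.13, 9.13 and 9.18 in LH+BMP6. Both groups with BMP6 lay below both groups without it, and every LH array lay above every control array. SLC25A1 fell by 0.71 ± 0.14 without LH, or 1.63-fold (adjusted p 0.00144), and by 1.02 ± 0.14 with LH, or 2.03-fold (adjusted p 5.52e-05).

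SLC25A33, a pyrimidine nucleotide carrier, fell by 0.58 ± 0.09 (adjusted p 0.00026) and 0.45 ± 0.09 (adjusted p 0.00184). SLC25A26, which brings S-adenosylmethionine into mitochondria, fell by 0.49 ± 0.11 (adjusted p 0.00564) and 0.40 ± 0.11 (adjusted p 0.0185, and 0.0525 to 0.0584 without LH replicate 2, LH+BMP6 replicate 3 or LH+BMP6 replicate 4). A mean over the probe sets of SLC25A26 was -0.29 without LH (adjusted p 0.0473) and -0.27 with it, where it was not called (adjusted p 0.0587). SLC25A37, the iron importer mitoferrin-1, fell by 0.38 ± 0.09 without LH (adjusted p 0.0072) and measured -0.09 ± 0.09 with LH (adjusted p 0.551). SLC25A12, the aspartate-glutamate carrier of the malate-aspartate shuttle, was a rise among these falls. Its control signals were 8.28, 8.53, 8.55 and 8.33 and its BMP6 signals 9.15, 8.79, 9.08 and 9.16, without overlap, and the differences were 0.62 ± 0.11 (adjusted p 0.000691) and 0.49 ± 0.11 with LH (adjusted p 0.00391). SLC25A16, linked to coenzyme A transport, rose by 0.47 ± 0.12 (adjusted p 0.008) and 0.49 ± 0.12 (adjusted p 0.0057). SLC25A29, a carrier of basic amino acids, fell by 0.34 ± 0.09 (adjusted p 0.0117, and 0.085 without the 3 arrays of low hybridisation signal) and 0.38 ± 0.09 (adjusted p 0.00501).

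The ADP/ATP exchangers gave a mixed reading. SLC25A6, which encodes ANT3, was called lower by its brightest probe set (-0.66 ± 0.13, adjusted p 0.00205, and -0.58 ± 0.13 with LH, adjusted p 0.00459). Another probe set of SLC25A6 was called higher in BMP6 against control (0.28, adjusted p 0.0231), and a mean over its probe sets was not called (-0.16, adjusted p 0.099). In LH+BMP6 against LH its 2 other probe sets measured 0.24 (adjusted p 0.0534) and 0.04 (adjusted p 0.854), and the mean over its probe sets was again not called (-0.10, adjusted p 0.305). SLC25A5, which encodes ANT2, measured 0.06 ± 0.11 and 0.20 ± 0.11, while its dimmer probe set measured 0.72 (adjusted p 0.0807) and 0.99 (adjusted p 0.0159). SLC25A4 (ANT1), SLC25A3, the phosphate carrier, and SLC25A20, which brings acylcarnitines into mitochondria, were not called, with differences between -0.05 and 0.08. VDAC1, a channel of the outer mitochondrial membrane, fell by 0.33 ± 0.09 (adjusted p 0.0131, and 0.0785 without the 3 arrays of low hybridisation signal) and 0.29 ± 0.09 (adjusted p 0.0249, and 0.0509 to 0.0869 without LH replicate 1, LH replicate 3, LH+BMP6 replicate 2 or LH+BMP6 replicate 3).

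**Figure D4:**
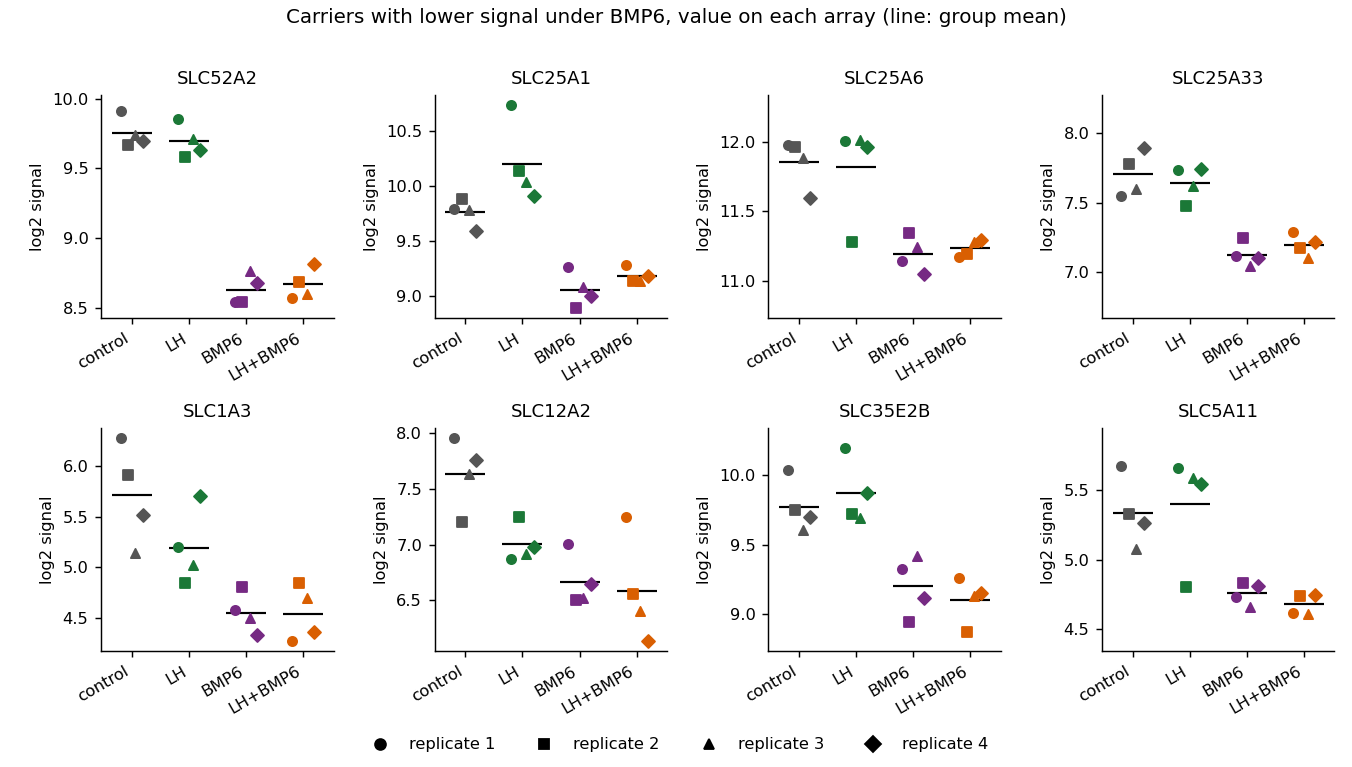
Log2 signal on each of the 16 arrays for 8 carriers with lower signal under BMP6, by group on the horizontal axis, with 1 symbol for each replicate number and a line at the group mean. For SLC52A2 and SLC25A1 every array with BMP6 lies below every array without it, while SLC12A2 overlaps between LH and LH+BMP6, and LH replicate 2 stands apart for SLC25A6 (11.28) and SLC5A11 (4.81).

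SLC52A2, a riboflavin transporter, had the smallest adjusted p of the carriers in both BMP6 comparisons. Its signals were 9.91, 9.67, 9.74 and 9.70 in control and 8.54, 8.54, 8.76 and 8.68 in BMP6. They were 9.85, 9.58, 9.71 and 9.63 in LH and 8.57, 8.69, 8.60 and 8.81 in LH+BMP6. The gap between the groups was several times their spread. SLC52A2 fell by 1.12 ± 0.08, or 2.18-fold (adjusted p 1.59e-07), and by 1.03 ± 0.08 with LH, or 2.04-fold (adjusted p 5.38e-07). Its 2 other probe sets fell as well, by 0.70 and 0.75 without LH and by 0.65 and 0.65 with it.

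Of the 30 carriers of nucleosides, nucleotide sugars and vitamins, 3 were called higher and 5 lower in each comparison. SLC29A1, the nucleoside transporter ENT1, rose from 8.65 ± 0.09 in control to 9.14 ± 0.03 in BMP6 and from 8.75 ± 0.20 in LH to 9.26 ± 0.13 in LH+BMP6, by 0.49 ± 0.09 (adjusted p 0.00119) and 0.50 ± 0.09 (adjusted p 0.000853). SLC46A3, a lysosomal membrane carrier, rose by 0.54 ± 0.10 (adjusted p 0.000981) and 0.49 ± 0.10 (adjusted p 0.00171). SLC35E2B, an orphan member of the nucleotide sugar family, measured 10.03, 9.75, 9.60 and 9.70 in control and 9.33, 8.95, 9.42 and 9.12 in BMP6, and fell by 0.57 ± 0.13 (adjusted p 0.00461) and by 0.76 ± 0.13 with LH (adjusted p 0.000441). SLC35F5, another orphan member, fell by 0.48 ± 0.15 (adjusted p 0.0288) and 0.50 ± 0.15 (adjusted p 0.0215). The first call ended when BMP6 replicate 2, 3 or 4 or control replicate 1, 2 or 4 was left out (adjusted p 0.0506 to 0.0886), and the other without LH replicate 1 or 2 or LH+BMP6 replicate 2 or 4 (adjusted p 0.0529 to 0.082) or in a fit of only the arrays compared (adjusted p 0.0557).

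SLC23A2, a sodium-coupled vitamin C transporter, was called lower with LH (-0.60 ± 0.15, adjusted p 0.00812) and measured -0.27 ± 0.15 without it (adjusted p 0.242). SLC46A2 had one of the larger differences that missed the threshold, at 0.73 ± 0.31 (adjusted p 0.115) and 0.80 ± 0.31 (adjusted p 0.077), and was named after its values were seen. Its BMP6 signals of 4.91, 6.31, 4.93 and 4.59 show that replicate 2 stood far above the others, as it did for SLC16A3. SLC66A2, of a family outside the classes above, was called higher with LH (0.27 ± 0.08, adjusted p 0.0214, and 0.052 to 0.0827 without LH replicate 1 or LH+BMP6 replicate 3) and measured 0.19 ± 0.08 without it (adjusted p 0.1).

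Transporters outside the SLC symbols were counted for comparison. Of 7 organic anion carriers of the SLCO family, 2 were called higher and 0 lower in each comparison, and SLCO4A1, which carries thyroid hormones among other anions, rose by 0.80 ± 0.18 (adjusted p 0.00458) and 0.66 ± 0.18 (adjusted p 0.0135, and 0.0506 without LH+BMP6 replicate 2). Of 17 ATP-binding cassette transporters, 1 was called higher and 3 lower in each comparison. ABCA4, a lipid flippase known from the retina, fell by 1.11 ± 0.18 (adjusted p 0.000345) and 1.32 ± 0.18 (adjusted p 6.84e-05).

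The response to BMP6 was compared between cultures without and with LH. Of the carriers, 29 were called in both comparisons, 17 higher and 12 lower in each, which is 78.4% of those called without LH and 72.5% of those called with it. Over all named genes these shares were 78.2% and 71.4%. The 2 comparisons share no arrays, but they are not independent. They were fitted together with 1 estimate of the spread for each probe set, and their arrays share culture experiments. Another 8 carriers were called without LH alone and 11 with LH alone, and in each of these 19 the sign was the same in the other comparison. For no carrier was the interaction of LH and BMP6 called by limma (0 of 179, with 3 at an unadjusted p under 0.05), nor for any of the 9155 named genes (0%), so a call in 1 comparison alone does not show that the response differed. With all arrays of 1 replicate number left out, so that 3 remain in each group, some further calls ended. Among them, in BMP6 against control, were SLC25A16 (adjusted p 0.0503 to 0.0597 without replicate 2 or 4), SLC25A29 (0.0643 to 0.0833 without replicate 1 or 2) and SLC6A9 (0.0864 without replicate 4). In LH+BMP6 against LH, leaving out replicate 3 ended the calls of SLC20A1 (adjusted p 0.0594), SLC23A2 (0.084), SLC25A29 (0.0771) and SLC39A14 (0.056). SLC25A12 lost its call with LH without replicate 3 or 4 (adjusted p 0.0585 to 0.0628), SLC25A6 without replicate 1 or 3 (0.0593 to 0.0605), SLC25A16 without replicate 4 (0.055) and SLC26A11 without replicate 1 or 2 (0.0527 to 0.0859). The 5 smallest p values of the interaction belonged to SLC10A1 (-0.28 ± 0.11), SLC6A6, a taurine carrier (-0.28 ± 0.12), SLC25A37 (0.29 ± 0.13), SLC12A2 (0.55 ± 0.28) and SLC22A7, an organic anion carrier (0.19 ± 0.10), each with an adjusted p of 1.00.

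**Figure D5:**
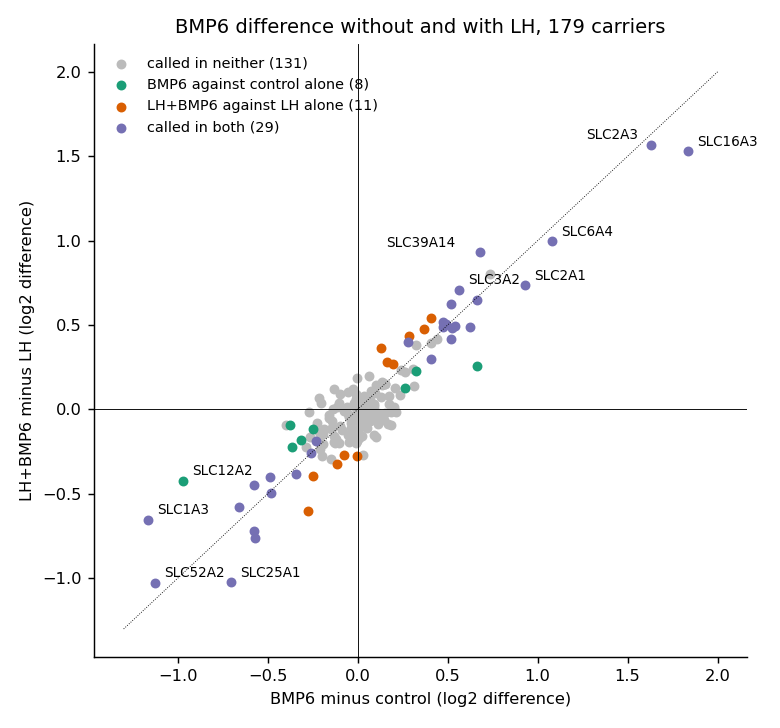
Log2 difference of each of the 179 carriers in BMP6 minus control (horizontal) and LH+BMP6 minus LH (vertical), coloured by the comparison in which limma called it, with a dotted line where both are equal. The 29 carriers called in both lie at the lower left and upper right. SLC12A2, called without LH alone by the probe set drawn but in both comparisons by its other probe set, lies above the line.

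No carrier passed the test for LH. In LH against control 0 of 179 were called by limma, with 10 at an unadjusted p under 0.05, where 0.0218% of all named genes (2 of 9155, TF among them) were called. The smallest p values belonged to SLC25A37 (-0.31 ± 0.09), SLC25A1 (0.45 ± 0.14), SLC12A2 (-0.63 ± 0.20), SLC25A40 (-0.28 ± 0.09) and SLC7A9 (0.23 ± 0.09), with adjusted p from 0.662 to 0.805. Of these, SLC25A1 and SLC25A37 did not overlap between the LH and control arrays. In LH+BMP6 against BMP6 0 of 179 were called, with 4 at an unadjusted p under 0.05, and 0% of all named genes. The differences there ran from -0.22 to 0.34, with every adjusted p at 1.00. SLC34A2, SLC22A7, SLC35A4, SLC35A5 and SLC6A14 had the smallest p values, at 0.29, 0.19, 0.27, -0.18 and -0.21.

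The 73 further probe sets of 51 carriers gave a further reading of some of these calls. In BMP6 against control, 18 further probe sets belonged to a called carrier: 9 were called in the same direction, 1 in the opposite direction (SLC25A6) and 8 were not called, 6 of them with the same sign. In LH+BMP6 against LH there were 17, with 7 called in the same direction, 0 opposite and 10 not called, 7 of them with the same sign. SLC25A12 was called higher by all 3 of its probe sets in both comparisons. For SLC16A3 the 2 dimmer probe sets measured 0.47 (adjusted p 0.0457) and 0.28 (adjusted p 0.204) without LH, well under the 1.84 of the brightest. With LH they measured 0.34 (adjusted p 0.144) and 0.39 (adjusted p 0.0618), beside 1.53 for the brightest.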

How the data were processed

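The deposited value table holds log2 signals, which the authors made with RMA in Affymetrix Expression Console, per the submitters' processing notes. The sources used here do not give its version, and the table was used with no further normalization (0 per-sample columns were left unused). RMA shrinks differences of dim probe sets and assumes like signal distributions on all arrays.

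Of 24128 probe sets, 112 Affymetrix control sets were left out and 24016 were tested. GEO's platform annotation gave 1 symbol to 13292 of them, several to 86 and none to 10638. All 252 carrier probe sets matched an Entrez identifier, and 0 symbols changed. A gene stands on its probe set of highest mean.

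Tests used limma 3.58.1 in R 4.3.3: lmFit with 1 coefficient for each of the 4 groups over 16 arrays, eBayes with an intensity trend, and Benjamini-Hochberg adjustment over the 24016 probe sets. Errors of differences are moderated SEs. The median SE was 0.102 for 2 groups compared and 0.144 for an interaction, and the number of arrays limits the precision. Scripts were tested on simulated data. Figures were drawn with matplotlib 3.10.9.

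The carriers, their classes by family number, the lists of related genes and the markers were chosen with earlier results of these data known. In each comparison the text names up to 12 of the largest rises and of the largest falls among called carriers with 1 direction in 4 of 4 replicate numbers. It also names up to 3 of each class, the 5 smallest p values where fewer than 5 were called, the 8 highest mean signals, up to 4 of each list, and a fixed set, and 1 carrier that this rule names is not reported here. SLC46A2 and further probe sets were added after their values were seen. Likeness was read on deviations from group means.

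The labels describe 4 experiments on separate ovary batches, and equal replicate numbers were taken to mark these, which is not stated array by array. Deviations of equally numbered arrays correlated at 0.033, -0.111, 0.149 and 0.0797 for BMP6 and control, and at 0.51, 0.688, 0.0778 and 0.244 for LH+BMP6 and BMP6. For LH+BMP6 and LH they correlated at 0.169, 0.269, 0.0858 and 0.258, and for LH and control at 0.319, 0.0239, 0.135 and 0.146. The main test had no replicate block. Alternatives were a replicate block as fixed term or random effect (statmod 1.5.0), eBayes with no trend or robust, a filter on dim signal (percentile 40), only the arrays compared, quantile normalization, median centring, other choices of probe set, and arrays left out. No genome or sequence of the array's probe sets was used here, so no positions or sequences are given.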

Additional observations from a re-analysis of the deposited data

Results flagged for a closer look

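Among the 54 carriers named by rule, 216 groups of 4 arrays were checked for an array far from the other 3, and 8 were found, where chance gives about 1 in 20 groups. LH replicate 1 was low for SLC17A9, at 6.386 (the others 6.928 to 7.035), and for SLC25A37, at 8.021 (the others 8.288 to 8.333). LH replicate 2 was low for SLC25A6, at 11.28 (the others 11.96 to 12.01), for SLC5A11, at 4.807 (the others 5.54 to 5.655), and for SLC34A2, at 3.582 (the others 3.783 to 3.811). LH replicate 3 was high for SLC25A29, at 6.919 (the others 6.702 to 6.706). BMP6 replicate 2 was high for SLC25A5, at 11.23 (the others 10.85 to 10.91), and LH+BMP6 replicate 2 for SLC35A2, at 7.464 (the others 7.231 to 7.261). Of these 8 values, 6 were measured on LH arrays. LH replicate 1 is one of the 3 arrays of low hybridisation signal. Its part in the values was not tested.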

How the results depend on the processing

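Of the 37 carriers called in BMP6 against control, 17 kept their call in every setting run, and of the 40 in LH+BMP6 against LH, 12 did. Leaving out a single array ended 13 and 16 calls. With arrays or replicate numbers left out in turn, carriers called higher ranged from 13 to 22 and lower from 11 to 16 in BMP6 against control, and from 10 to 23 and 8 to 17 in LH+BMP6 against LH. The lowest counts came without control replicate 1 (13), and without whole replicate numbers, which leave fewer arrays. LH against control, LH+BMP6 against BMP6 and the interaction gave 0 calls in every such fit. Without the 3 arrays of low hybridisation signal, BMP6 against control gave 12 higher and 11 lower. The replicate block as a fixed term gave 23 higher and 19 lower in BMP6 against control and 24 and 18 in LH+BMP6 against LH, and as a random effect 21 and 19, and 24 and 18. With the fixed block SLC31A1 and SLC35G2 lost their calls with LH and SLC1A5 gained one without LH (adjusted p 0.0401), and no other call among the carriers named changed.

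Sign changes were seen in 5 small differences that limma had not called. SLC30A1 (BMP6 against control) turned to -0.022 under quantile normalization and -0.061 without the low arrays, and ranged from -0.123 to 0.123 with arrays or replicate numbers left out. The same ranges were -0.122 to 0.0226 for SLC25A20 and -0.146 to 0.331 for SLC39A8 (LH+BMP6 against LH), and -0.0244 to 0.124 for SLC25A5 (BMP6 against control). SLC25A20 was at 0.0116 without the low arrays, and SLC35A5 (LH+BMP6 against BMP6) was at 0.121 with its probe set of highest variance. The causes were not tested. Signal over background was not estimated, so no detection limit is given for the 39 carriers under the lower quartile.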
